A study of Arabidopsis thaliana with 12 samples.

Results

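The 26 members are the probe sets, of 22746 measured in Arabidopsis roots, whose signal was higher by a set minimum in the arr10 arr12 double mutant than in wild type under both treatments of the study, the cytokinin trans-zeatin and its solvent DMSO. Members were chosen from the measured values in 4 steps. The highest of the 4 group means had to reach a signal of 40, which 12011 probe sets did. The difference between arr10 arr12 and wild type, on the scale log2(group mean + 7), had to be at least 0.5 under trans-zeatin and under DMSO. The response of wild type to trans-zeatin had to stay within 1.5-fold in either direction on the same scale. A total of 28 probe sets met these conditions, and the loci AT4G12490 and AT4G12500 were then left out by name, which leaves 0.216% of the probe sets at the required level. Every genotype difference given below was therefore used in the choice and is a description.

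The 12 Affymetrix ATH1 arrays fall into 4 groups of 3: arr10 arr12 with trans-zeatin, arr10 arr12 with DMSO, wild type with trans-zeatin and wild type with DMSO. All plants were in the Col-0 background and had grown for 2 weeks on upright agar plates, and the labels name no other allele or agent. The mutant is a single combination of 1 insertion allele in each gene, from the lines SALK_098604 and SALK_054752. The labels give neither the concentration nor the duration of trans-zeatin, they write CK in the titles of the treated wild type and TZ in those of the treated mutant, and they name roots as the tissue while the extraction text speaks of whole seedlings. They do not say that replicates came from separately grown plants, so each p-value below reflects array-to-array spread, which may be technical.

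Cytokinin is perceived by histidine kinase receptors in plant cells, and the phosphate signal passes through phosphotransfer proteins to response regulators in the nucleus. ARR10 and ARR12 are type-B response regulators, transcription factors that switch on cytokinin target genes, among them the type-A response regulators that dampen the pathway. In roots, cytokinin is known for limiting the size of the meristem and for acting on vascular differentiation.

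Signals are on the authors' linear scale, with a median of 39.3 to 41.6 per array over the probe sets other than controls, and arrays correlated at 0.987 to 0.993 within groups and at 0.980 to 0.991 between groups. ARR10 and ARR12 had no annotated probe set here, so the lesions were not checked by their own transcripts. The type-A regulator ARR15 averaged 22.6 in arr10 arr12 and 59.2 in wild type under trans-zeatin (log2 difference -1.15, limma adjusted p = 0.00137). Under DMSO it averaged 6.56 in arr10 arr12 and 10.5 in wild type (log2 difference -0.37, limma adjusted p = 0.22). Only 2 of 15 root markers had an annotated probe set, the root hair expansins EXPA7 and EXPA18, and their summed signal was 162 to 185 in arr10 arr12 and 169 to 195 in wild type under trans-zeatin, and 164 to 206 in arr10 arr12 and 223 to 315 in wild type under DMSO. Of 15 markers of green tissue, 2 had an annotated probe set, RCA (Rubisco activase) and LHCB4.1 (a light-harvesting protein), and both were well above the median signal. Their sum was 345 to 362 in arr10 arr12 and 462 to 484 in wild type under trans-zeatin, and 331 to 349 in arr10 arr12 and 440 to 558 in wild type under DMSO. The sum of these 2 markers was thus lower in the mutant on every array, and their part in the members' differences was not tested. Under trans-zeatin the log2 difference was -0.50 for RCA (limma adjusted p = 0.0259) and -0.34 for LHCB4.1 (limma adjusted p = 0.0749). With DMSO it was -0.55 for RCA (limma adjusted p = 0.0133) and -0.56 for LHCB4.1 (limma adjusted p = 0.00357). Since each array holds RNA of whole organs, more cells of a type and more RNA per cell cannot be told apart for any gene below.

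Only 8 of the 26 probe sets had 1 gene in the platform annotation used here, where 13513 of all 22746 probe sets did. They are AT5G38910, AT1G29660, AT1G73600, AT5G15180, AT5G41280, AT3G16800, AT1G26250 and AT5G57785. The other 18 are called by their probe set IDs, and 1 of them, 257162_s_at, carries the suffix of a probe set that can detect several transcripts. The named members are a mixed group by function: 1 germin-like protein, 1 lipase, 1 enzyme of phospholipid head group synthesis, 1 peroxidase, 1 extensin-like protein, 1 cysteine-rich secretory protein, 1 protein phosphatase and 1 protein without a role given here. Loci of cytokinin signalling could hardly be named here: of the 10 type-A response regulators 2 had an annotated probe set, of the 11 type-B regulators 2, and of the lists of receptors and phosphotransfer proteins, cytokinin oxidases and cytokinin response factors none, so their absence from the 8 says little.

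Signals of the members were moderate. Their group means ranged over 41.2 to 580 in arr10 arr12 and 8.80 to 318 in wild type under trans-zeatin, with medians of 149 and 58.9. Under DMSO the range was 41.6 to 594 in arr10 arr12 and 13.0 to 369 in wild type, with medians of 147 and 82.3. The ratio of mean signals, arr10 arr12 over wild type, was 1.44 to 4.75 under trans-zeatin (median 1.86) and 1.46 to 4.28 under DMSO (median 1.72). On the log2(group mean + 7) scale the differences were 0.50 to 1.63 with trans-zeatin and 0.53 to 1.65 with DMSO, and the larger of a member's differences was the one under trans-zeatin in 11 members and the one under DMSO in 15. The offset of 7 shrinks the differences of dim members.

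**Figure D1:**
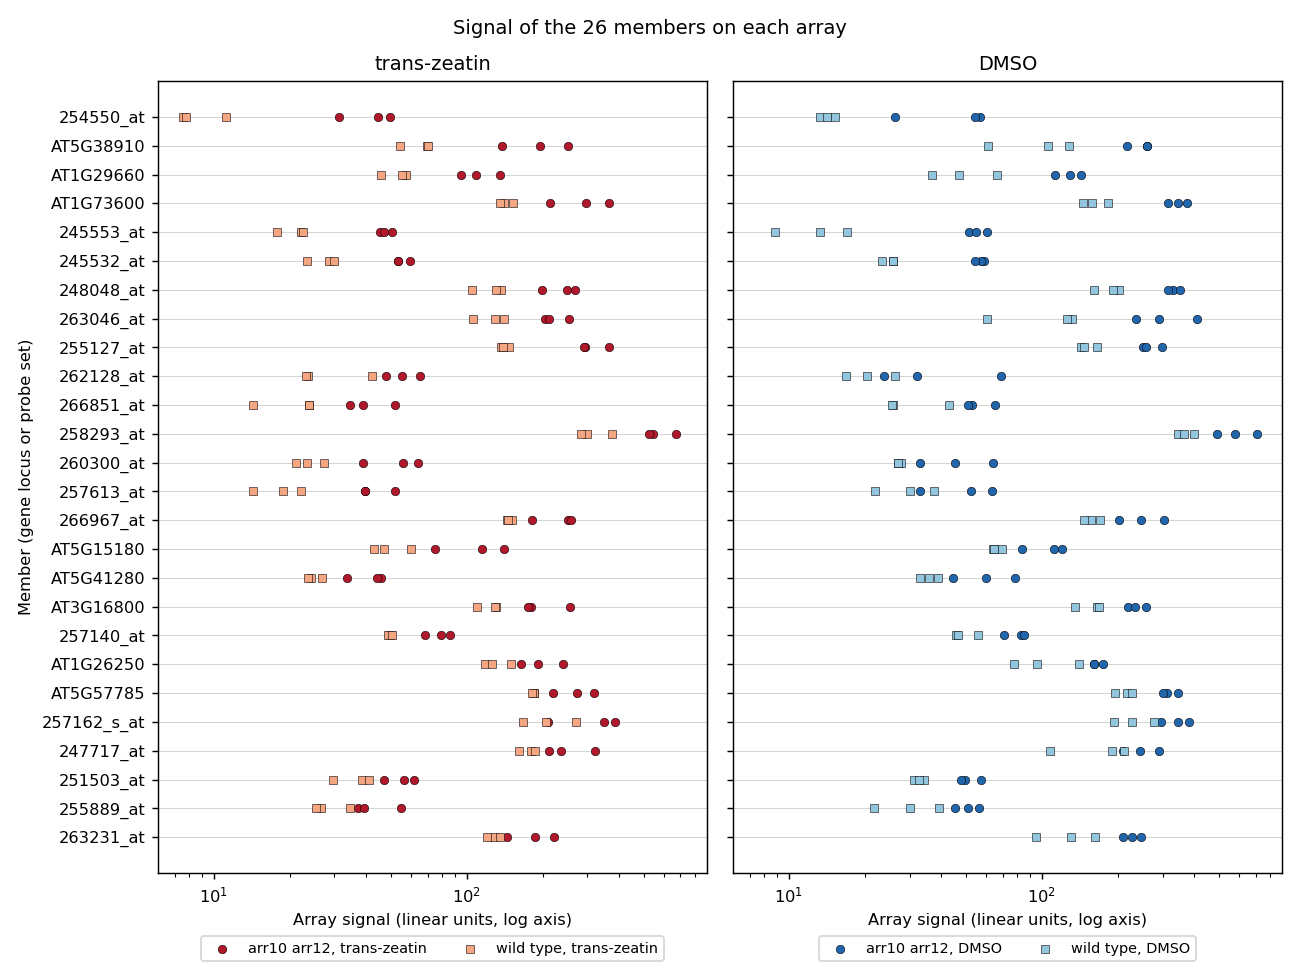
Signal of the 26 members on each array, on a log axis, under trans-zeatin (left) and DMSO (right); circles are arr10 arr12 and squares wild type, 3 arrays each. Under trans-zeatin the circles lie right of all squares in 25 members, and under DMSO in 23.

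AT5G38910, one of the loci given as markers of the set, encodes a germin-like protein, a family of secreted cupins of the cell wall. Its signal was 252, 195 and 138 in arr10 arr12 and 69.7, 54.3 and 70.1 in wild type under trans-zeatin. Under DMSO it was 260, 217 and 261 in arr10 arr12 and 106, 128 and 61.1 in wild type. All 6 mutant arrays were above all 6 wild-type arrays, with the smallest gap between the third trans-zeatin array of the mutant and the second DMSO array of wild type. The means were 195 ± 57.1 in arr10 arr12 and 64.7 ± 8.98 in wild type under trans-zeatin, a ratio of 3.02, and 246 ± 24.9 in arr10 arr12 and 98.4 ± 34.1 in wild type under DMSO, a ratio of 2.50 (SD, n = 3 each). The ratio under trans-zeatin was the largest among the named members.

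AT1G29660, the other marker locus, encodes a GDSL-type lipase, an esterase family with many secreted members. Its signal was 94.7, 109 and 135 in arr10 arr12 and 57.7, 55.6 and 45.9 in wild type under trans-zeatin. Under DMSO the values were 143, 129 and 112 in arr10 arr12, against 36.7, 46.9 and 66.2 in wild type. Again the 6 arrays of the mutant lay above the 6 of wild type. Mean signals were 113 ± 20.7 in arr10 arr12 and 53.1 ± 6.29 in wild type under trans-zeatin, a ratio of 2.13, and 128 ± 15.5 in arr10 arr12 and 49.9 ± 14.99 in wild type under DMSO, a ratio of 2.56 (SD, n = 3 each).

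AT1G73600 encodes a methyltransferase that acts on phosphoethanolamine on the way to phosphocholine, the head group of phosphatidylcholine. It was the brightest member with a named function, at 365, 297 and 213 in arr10 arr12 and 141, 152 and 135 in wild type under trans-zeatin. Under DMSO it gave 375, 314 and 345 in arr10 arr12 and 183, 146 and 158 in wild type. No mutant array fell to the level of any wild-type array, and the ratio of means was 2.04 under trans-zeatin and 2.12 under DMSO. Its relative PMEAMT (AT1G48600), of the same enzyme family, was not a member: it averaged 1332 in arr10 arr12 and 1471 in wild type under trans-zeatin (log2 difference -0.14, limma adjusted p = 0.586), and 1396 in arr10 arr12 and 1474 in wild type under DMSO (log2 difference -0.08, limma adjusted p = 0.688).

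AT5G15180 encodes a class III peroxidase, a family that oxidises phenolic compounds in the cell wall. Its values under trans-zeatin were 141, 115 and 75.0 in arr10 arr12 and 60.04, 42.8 and 46.9 in wild type. Under DMSO they were 112, 121 and 83.5 in arr10 arr12 and 69.4, 64.2 and 64.8 in wild type. The genotypes did not overlap, and the third mutant array was the lowest of its group under either treatment. The ratio of means was 2.21 under trans-zeatin and 1.59 under DMSO, the widest gap between treatments among the named members.

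AT1G26250 belongs to the proline-rich extensin-like family of structural cell wall proteins. It gave 191, 240 and 164 in arr10 arr12 and 118, 126 and 150 in wild type under trans-zeatin. Under DMSO the signal was 174, 161 and 161 in arr10 arr12 and 77.4, 140 and 95.3 in wild type. The gap between genotypes was narrow, since the highest wild-type array, at 150, came close to the lowest mutant array, at 161, and the means differed by 1.51-fold under trans-zeatin and 1.59-fold under DMSO.

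AT5G41280, a locus of the cysteine-rich secretory family with DUF26 domains, was the dimmest named member. Its signal was 33.6, 45.7 and 44.2 in arr10 arr12 and 26.8, 24.2 and 23.7 in wild type under trans-zeatin. With DMSO it was 44.4, 77.9 and 60.2 in arr10 arr12 and 35.9, 32.9 and 38.8 in wild type. Genotypes were separate within each treatment, but the lowest trans-zeatin array of the mutant was below the highest DMSO array of wild type.

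AT3G16800 encodes a protein phosphatase of the 2C family, enzymes that remove phosphate from serine and threonine residues. Values were 255, 179 and 175 in arr10 arr12 and 130, 110 and 130 in wild type under trans-zeatin. They were 257, 219 and 234 in arr10 arr12 and 165, 168 and 135 in wild type under DMSO. All mutant arrays were above all wild-type arrays, by a ratio of means of 1.65 under trans-zeatin and 1.52 under DMSO.

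AT5G57785 is named by its locus only, without a role. It had 318, 273 and 219 in arr10 arr12 and 185, 184 and 181 in wild type under trans-zeatin, and 312, 346 and 300 in arr10 arr12 and 217, 195 and 228 in wild type under DMSO. The genotypes were separate within each treatment, and the ratio of means under trans-zeatin, 1.47, was the smallest of the named members.

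Among the members without a gene name, 254550_at had the largest ratio under trans-zeatin and 245553_at the largest under DMSO. The probe set 254550_at gave 49.8, 44.5 and 31.2 in arr10 arr12 and 11.2, 7.54 and 7.73 in wild type under trans-zeatin, and 56.9, 54.4 and 26.3 in arr10 arr12 and 15.2, 13.2 and 14.2 in wild type under DMSO. It was the dimmest member over all arrays, so its ratios of 4.75 and 3.23 rest on wild-type signals well under the median of an array. The probe set 245553_at gave 45.4, 50.5 and 47.0 in arr10 arr12 and 22.1, 22.5 and 17.7 in wild type under trans-zeatin, and 51.4, 60.9 and 54.7 in arr10 arr12 and 8.82, 16.97 and 13.3 in wild type under DMSO. Replicates lay close together in 245532_at, at 53.4, 53.7 and 59.6 in arr10 arr12 and 23.3, 28.5 and 29.8 in wild type under trans-zeatin, and 58.9, 57.2 and 54.3 in arr10 arr12 and 23.2, 25.8 and 25.8 in wild type under DMSO. In these 3 probe sets the mutant arrays were all above the wild-type arrays.

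The brightest member was 258293_at, at 544, 524 and 673 in arr10 arr12 and 375, 298 and 282 in wild type under trans-zeatin, and 580, 712 and 492 in arr10 arr12 and 346, 398 and 364 in wild type under DMSO. In 263046_at the DMSO ratio of 2.94 exceeded the trans-zeatin ratio of 1.79, with signals of 235, 291 and 411 in arr10 arr12 and 60.9, 132 and 126 in wild type under DMSO, where the replicates of both genotypes were far apart. In 255127_at the order was turned, with 2.25 under trans-zeatin and 1.77 under DMSO. The other 12 unnamed members had ratios of 1.44 to 2.38 under trans-zeatin and 1.46 to 1.97 under DMSO.

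Arrays of the mutant were all above those of wild type in 25 of 26 members under trans-zeatin, where 8.54% of all 13647 tested probe sets were, and in 23 members under DMSO, against 15.5%. The exception under trans-zeatin was 257162_s_at, and those under DMSO were 262128_at, 257613_at and 247717_at. In 262128_at the mutant DMSO arrays read 69.1, 31.97 and 23.7 and those of wild type 16.7, 26.1 and 20.3, so that 1 array supplied most of the mutant's higher mean. In 16 members the 6 mutant arrays were above the 6 wild-type arrays, as in 1.15% of the probe sets tested. All 26 members passed the filter on signal, a mean over the 12 arrays above 23.5. By limma's moderated test with Benjamini-Hochberg adjustment over the 13647, at a threshold of 0.05, 18 members were higher in arr10 arr12 under trans-zeatin (0.887% of the tested probe sets were) and 20 under DMSO (2.02%). Both comparisons were passed by 15 members and neither by 3, and the same was not counted over all tested probe sets. With the replicate number as a block, 21 members and 187 probe sets in all were higher under trans-zeatin, against 121 in all without it. Under DMSO 23 members and 381 probe sets in all were higher with the block, against 276 in all without it. In either direction 483 probe sets passed under trans-zeatin with the block and 317 without it. These shares cannot be read as support, since the same contrasts chose the members. Leaving out 1 array moved the members' counts by over 1.5 times in 4 cases. Without the second trans-zeatin array of wild type, 10 members were higher under trans-zeatin, as were 58 of all tested probe sets. Under DMSO, 13 members and 49 probe sets in all were higher without the first mutant DMSO array. The counts were 11 and 50 without the second mutant DMSO array, and 11 and 69 without the first wild-type DMSO array.

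**Figure D2:**
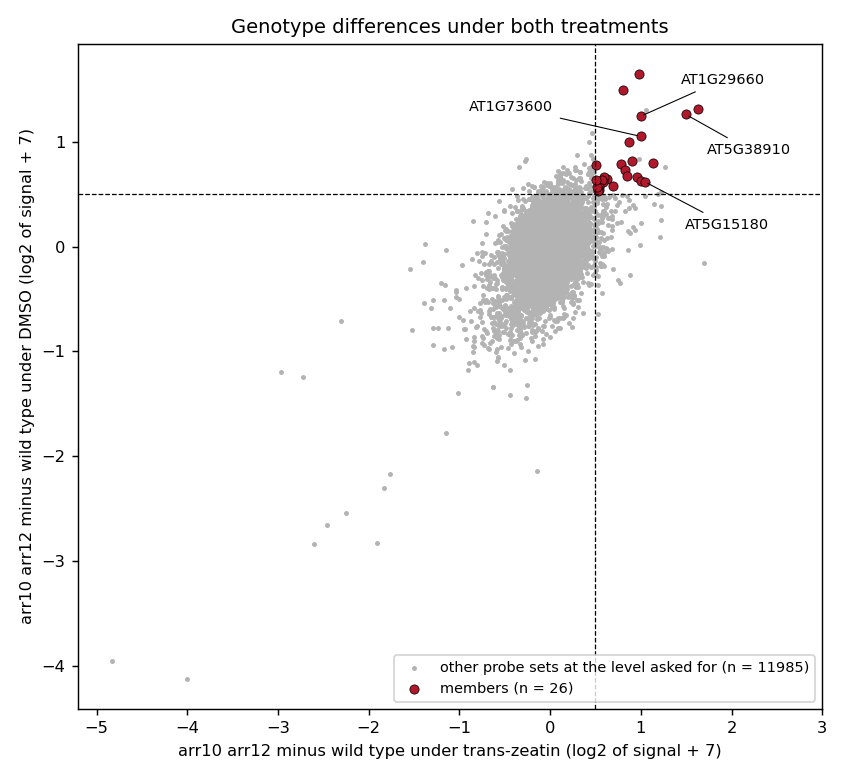
Difference between arr10 arr12 and wild type under trans-zeatin (x axis) and under DMSO (y axis), in log2 of the group mean plus 7, for the 12011 probe sets at the required level; dashed lines mark 0.5. Red points are the 26 members, at 0.50 to 1.63 and 0.53 to 1.65; grey points beyond both lines exceeded the limit on the wild-type response or were left out by name.

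The 0.5 threshold runs through a continuous spread. The members nearest to it were 251503_at, with a smaller difference of 0.52, and 255889_at and 263231_at, each at 0.50. Just outside were AT2G28780, at 0.497 under trans-zeatin and 0.54 under DMSO, AT2G27550 (ATC, a relative of the flowering repressor TFL1), at 0.80 and 0.497, and AT4G39675, at 0.53 and 0.497. The loci left out by name also met every condition, at 1.05 under trans-zeatin and 1.31 under DMSO for AT4G12500 and at 0.98 and 0.83 for AT4G12490.

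To read the difference in arrays that did not take part in a choice, the same conditions were applied to 2 arrays per group and the genotype difference was taken from the third array of each group. With replicate 1 left out, 31 probe sets were chosen, 17 of them among the 26. In the left-out arrays their median difference was 0.48 under trans-zeatin and 0.79 under DMSO, and 28 and 30 of the 31 were above 0. With replicate 2 left out, 35 were chosen, the left-out medians were 0.74 and 0.54, and 31 and 30 were above 0. With replicate 3 left out, 39 were chosen, the medians were 0.46 and 0.44, and 36 and 35 were above 0. Of all probe sets at the required level, 46.5% to 52.4% were above 0 in the same trans-zeatin arrays and 52.0% to 55.8% in the same DMSO arrays.

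The minimum difference was not always reached in the left-out arrays. At least 0.5 was reached in the left-out arrays by 15 of 31, 22 of 35 and 18 of 39 chosen probe sets under trans-zeatin, where 1.92% to 3.19% of all probe sets reached it, and by 28 of 31, 20 of 35 and 19 of 39 under DMSO, where 1.25% to 7.24% did. The medians in the choosing arrays had been 0.66 to 0.72 under trans-zeatin and 0.69 to 0.73 under DMSO, and 4 of the 6 left-out medians were smaller. Each left-out value compares 1 array with 1 array, so no test was made. The chosen probe sets share these arrays and are no replicates of a genotype effect, so the counts are a description. A total of 67 probe sets were chosen at least once, and 12 in all 3 choices, each of the 12 a member. These were AT1G29660, AT1G73600, AT3G16800, 254550_at, 245553_at, 245532_at, 248048_at, 263046_at, 255127_at, 258293_at, 266967_at and 257140_at. AT5G38910 was chosen in 2 of 3. A probe set that meets the difference and wild-type conditions in all 3 choices meets them over all arrays by arithmetic. That the 12 are members is therefore no added support.

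**Figure D3:**
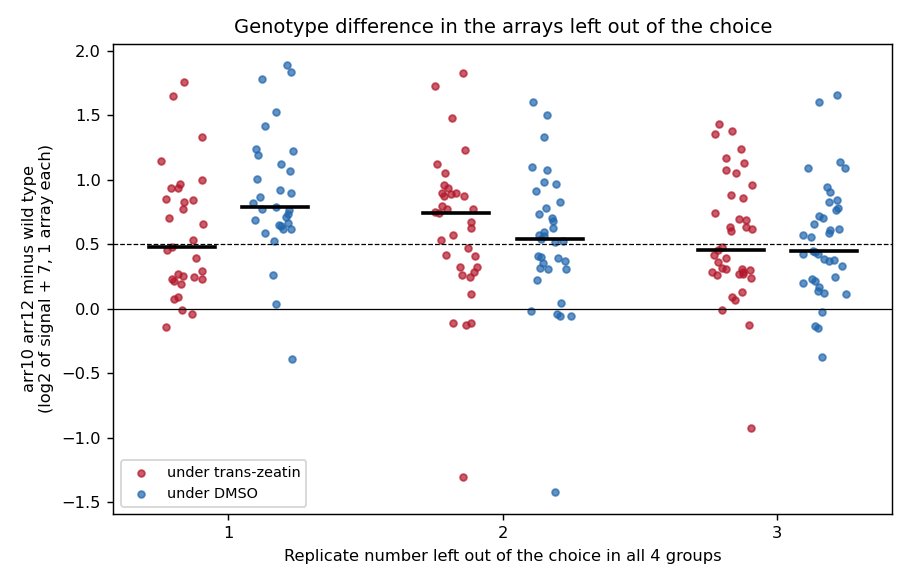
Difference between arr10 arr12 and wild type in the arrays left out of the choice, in log2 of signal plus 7, for the 31, 35 and 39 probe sets chosen without replicate 1, 2 and 3; points are probe sets, black bars medians, and the dashed line marks 0.5. Most points lie above 0, with medians of 0.44 to 0.79.

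The response of the mutant itself to trans-zeatin was no condition of the choice, although the same 6 mutant arrays entered it. None of the 26 members passed limma's test with adjustment over all probe sets, where 1.24% of those tested did. At an unadjusted p below 0.05 there were 3 members, or 11.5%, against 10.5% of all tested. The mutant's response equals the wild-type response plus the genotype difference under trans-zeatin minus that under DMSO. All of these were used in the choice, so nothing is read from these shares. The log2 changes ran from -0.48 to 0.48, with 7 above 0 and 19 below, and had a median of -0.14, where the median of all probe sets tested was -0.01. The 95% confidence interval lay within 1 log2 unit of 0 for 25 members, and for 262128_at it reached from -0.08 to 1.04.

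The most negative changes were those of 248048_at and AT5G41280. In 248048_at the mutant arrays gave 268, 249 and 199 with trans-zeatin and 329, 317 and 350 with DMSO, and did not overlap (log2 change -0.48 ± 0.12 SE, limma adjusted p = 0.0841). The wild-type arrays of this probe set showed a like difference, at 137, 130 and 105 with trans-zeatin and 202, 192 and 161 with DMSO. In AT5G41280 the change was -0.47 ± 0.16 (SE, limma adjusted p = 0.202), and its arrays overlapped by a narrow margin. The call was gained by 248048_at with the replicate number as a block (limma adjusted p = 0.0263) and without the first trans-zeatin array of the mutant (limma adjusted p = 0.049), and by AT5G41280 without the first DMSO array of the mutant (limma adjusted p = 0.0452). Separate groups occurred in 2 members with trans-zeatin below DMSO, 248048_at and 245553_at (7.51% of all tested), and in 0 members with trans-zeatin above DMSO (6.35%).

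AT5G38910 changed by -0.36 ± 0.22 in the mutant, AT1G73600 by -0.26 ± 0.15 and AT1G29660 by -0.18 ± 0.17 (log2 ± SE), and for none of them did limma's adjusted p pass. The AT5G57785 change of -0.25 ± 0.12 had an interval of -0.50 to -0.01 and a limma adjusted p of 0.453. AT3G16800 changed by -0.23, the peroxidase locus AT5G15180 by 0.04 and the extensin-like AT1G26250 by 0.24, the highest of the named members.

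In wild type the response was limited by the choice. Its log2 values were -0.55 to 0.49, with a median of -0.11, and 16 members were below 0. In 7 members the change of group means was 0.4 or more in size, and in AT5G38910 it was -0.56, close to the limit, so that the germin-like locus sits at the edge of the condition. By limma's test 1 member, 245553_at, was higher with trans-zeatin and 1, 248048_at, lower, where 8.64% of all tested probe sets passed in either direction.

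**Figure D4:**
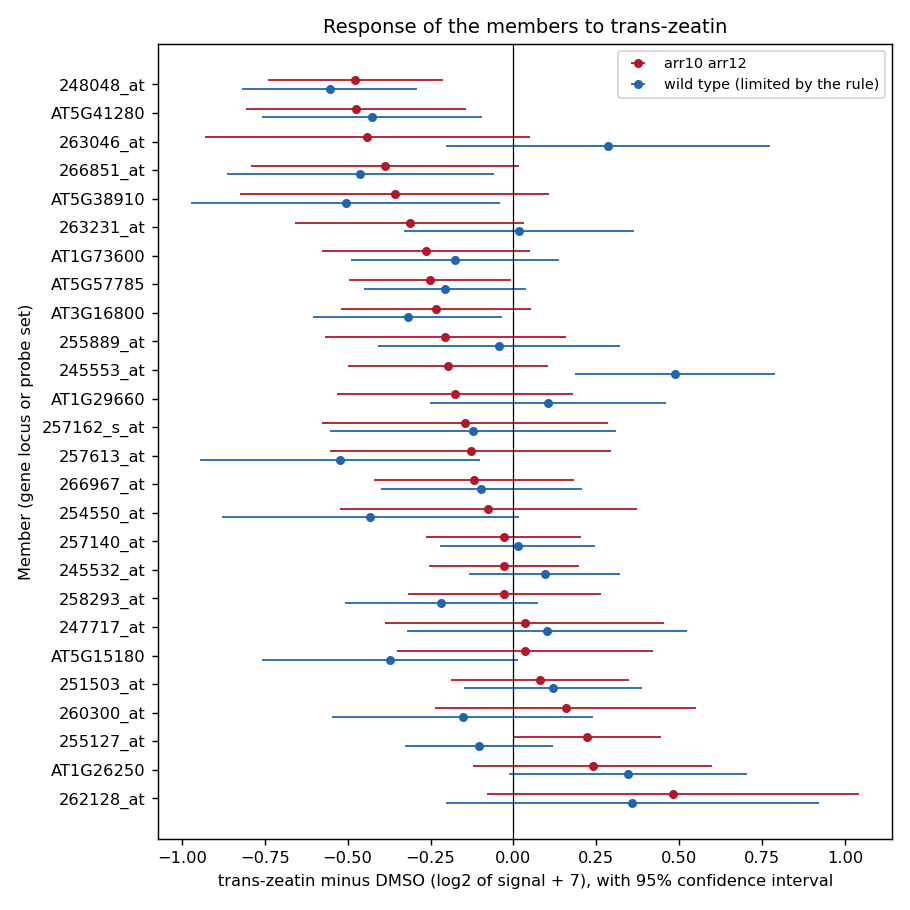
Trans-zeatin minus DMSO for each member in arr10 arr12 (red) and in wild type (blue), in log2 of signal plus 7; bars are 95% confidence intervals of limma's fit over 12 arrays. Mutant changes run from -0.48 to 0.48, and wild-type changes are limited by the choice of members.

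The difference between the genotypes' responses passed limma's adjusted test in 0 of 26 members, where 0.0440% of all probe sets tested passed. This quantity equals the genotype difference under trans-zeatin minus that under DMSO, both of which chose the members, so its values are a description and nothing is read from these shares. At an unadjusted p below 0.05 there were again 3 members (11.5%, against 10.8% of all tested). In 245553_at the mutant's response minus that of wild type was -0.68 ± 0.20 (SE, limma adjusted p = 0.266), since this probe set was lower with trans-zeatin than with DMSO on the mutant arrays and higher on those of wild type. In 263046_at the difference was -0.73 ± 0.33 (limma adjusted p = 0.441), and in 255127_at 0.33 ± 0.15 (limma adjusted p = 0.444). The intervals of 24 members stayed within 1 log2 unit of 0.

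Between replicate arrays, members moved together only slightly more than they did with other probe sets. After the group means were taken out, the 325 pairs of members had a median correlation of 0.09 over the 12 arrays, and the pairs of a member with any other tested probe set had one of 0.02. A correlation above 0.5 was seen in 17.2% of member pairs and 12.1% of the others, and one below -0.5 in 9.23% and 10.7%. Among the most extreme of the 325 pairs, AT5G38910 varied with AT3G16800 (0.85) and against AT1G29660 (-0.75), and 254550_at varied with AT5G15180 (0.86). All pairs share the same arrays, and these values are descriptions. Over the members, the median deviation from the group mean was 0.14, 0.04 and -0.14 in log2 on the trans-zeatin arrays of the mutant. On the first trans-zeatin array of wild type 22 of 26 members were above the group mean. Their median deviation there was 0.08, against 0.01 over all tested probe sets, whose share above the group mean was not counted.

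By locus name, 3 of the 8 named members are on chromosome 1, 1 is on chromosome 3 and 4 are on chromosome 5. The named genes at the required level number 1603, 1251 and 1494 on these chromosomes, and 923 on chromosome 2, which carries ARR12, and 910 on chromosome 4, which carries ARR10, where no named member lies. Both loci left out by name are on chromosome 4. Of the 8 named members, none lies within 3 genes of another; the positions of the other 18 were not examined. Neighbours of members within that span had 22 annotated probe sets, fitted without the filter on signal, and 1 of them passed: AT1G29670, the gene next to AT1G29660 and a GDSL-type lipase as well. Its signal was 18.5, 26.3 and 24.1 in arr10 arr12 and 10.68, 10.4 and 16.97 in wild type under trans-zeatin, and 26.9, 24.2 and 33.8 in arr10 arr12 and 11.7, 13.3 and 16.8 in wild type under DMSO. The mutant arrays were above those of wild type throughout, with log2 differences of 0.61 ± 0.17 under trans-zeatin (SE, limma adjusted p = 0.121) and 0.75 ± 0.17 under DMSO (limma adjusted p = 0.0394), and the DMSO call was lost in 7 of 19 other settings. It was too dim to be a member, and whether the probe sets of these neighbouring lipases detect each other's transcripts was not tested. AT1G26240, next to AT1G26250 and extensin-like too, differed by 0.56 ± 0.22 under trans-zeatin (SE, limma adjusted p = 0.331) and 0.36 under DMSO (limma adjusted p = 0.458), neither past the threshold. Its mean signals were low, at 13.2 in arr10 arr12 and 6.68 in wild type under trans-zeatin. Under DMSO they were 13.0 in arr10 arr12 and 8.52 in wild type, and the DMSO arrays overlapped.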

How the data were processed

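The authors deposited 1 intensity per probe set and array, on a linear scale. These signals were made with MAS5 and GCOS, per the submitters' processing notes, whose versions are not stated there. The 2%-trimmed mean was 99.2 to 99.3 on every array, and the signals were used with no further normalization. Of 22810 probe sets, 64 controls were left out. Annotation gave 13513 probe sets 1 gene, 503 several and 8730 none. Locus names and gene order came from the reference gene table (RefSeq); no coordinates are printed, because the files name no genome build.

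Members were chosen on log2(group mean + 7). Tests used limma 3.58.1 in R 4.3.3 (lmFit, eBayes with trend) on log2(signal + 7), with 4 group means over 12 arrays, for the 13647 probe sets above the 40th percentile of mean signal, with Benjamini-Hochberg adjustment, 2-sided. The fit was tested on simulated data. Of 18 same-numbered pairs of arrays, 9 had deviations from the group means that correlated above 0.1. Only between the trans-zeatin groups of mutant and wild type did all 3 pairs do so (0.1355 to 0.1561). The highest value, 0.336, was that of the third mutant DMSO array with the third wild-type trans-zeatin array. The labels give no shared batch, and the main fit holds no replicate term. A block for the replicate number was fitted to every comparison as an alternative. The number of arrays limits the precision. Members, gene lists and named genes were chosen with earlier results of these data known. Named genes are all members with 1 gene, the 3 unnamed members with the largest smaller difference, those at the extremes of signal, response and threshold, and annotated neighbours within 3 genes. The probe sets 262128_at, 263046_at, 255127_at, 257162_s_at, 257613_at and 247717_at were singled out after their values were seen. Promoter and protein sequences were not used here. Alternatives were other offsets, filters, group medians, quantile normalization, array weights, a replicate block, fits to only the arrays compared, and leaving out each array.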

Additional observations from a re-analysis of the deposited data

How the results depend on the processing

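The number of members was 40 with an offset of 1 and 40 with group medians (22 shared with the 26 in each case), 12 with an offset of 32 (all 12 shared), and 21 to 39 when each array was left out in turn. With the filter above the 60th percentile, which tests 15 members, 10 were higher in arr10 arr12 under trans-zeatin and 12 under DMSO. Of all 9098 probe sets tested there, 86 and 208 were higher. With 1 array left out, members that passed were 10 to 20 under trans-zeatin, 11 to 22 under DMSO, 0 to 1 for the mutant's response, 0 to 2 for the wild-type response and 0 to 0 for the difference of responses. The replicate block gave 1 member for the mutant's response, 248048_at (limma adjusted p = 0.0263), and 483 and 290 probe sets in all for the trans-zeatin genotype comparison and the mutant's response; it moved no other of these counts by over 1.5 times. In deviations from the group means, 9 of 12 arrays correlated best with their own number. For the wild-type response of the members, 1 passed with an offset of 32, 1 with no filter, 1 with the higher filter and 6 with array weights. Over all probe sets, the main counts were 317 and 682 for the genotype comparisons under trans-zeatin and DMSO, 169 and 1179 for the responses of mutant and wild type, and 6 for the difference of responses. With array weights they were 1318 under DMSO, 2203 for the wild-type response and 27 for the difference, with no filter 418 under DMSO and 101 for the mutant's response, and with only the arrays compared 79 for the mutant's response. With 1 array left out they ranged over 154 to 370, 173 to 908, 66 to 197, 570 to 1369 and 4 to 10, in the order of the main counts. Fewer arrays or genes entered the last and the filtered fits; the cause of the other shifts was not tested. A fit to only the arrays compared was not applicable to the difference of responses, which uses all 12.

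AT5G38910, AT1G29660, AT1G73600, 254550_at, 245553_at and 245532_at kept both genotype calls in every alternative run for them. The same contrasts chose the members, so these calls are a description and no support. The choice itself was less steady. With each of the 12 arrays left out in turn, 10 members were kept every time. AT5G38910 was kept in 9 of the 12 cases and 245553_at in 11. The mutant's response turned sign without 1 array in AT5G15180 (-0.15 to 0.27) and in 254550_at (-0.38 to 0.0913), both far from the threshold. The AT5G15180 call under DMSO (limma adjusted p = 0.0667) was gained in 6 of 22 alternatives, with adjusted p of 0.0141 to 0.247 over all 22. Calls under DMSO were lost by AT1G26250 in 8 of 22 alternatives, by AT5G41280 in 5 of 21, by AT3G16800 in 4 of 22 and by AT5G57785 in 2 of 22; calls under trans-zeatin were lost by AT5G57785 in 6 of 22 and by AT3G16800 in 1 of 22, and gained by AT5G41280 in 4 of 21 and by AT1G26250 in 2 of 22. Low signal limits dim members such as 254550_at and 245553_at, whose differences the offset shrinks.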

Other observations

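The class III peroxidase AT5G15180 was set beside the other probe sets whose gene name or synonym holds the word peroxidase, 9 in all, of which 7 were tested. Under trans-zeatin 1 was higher in arr10 arr12 and 1 lower. AT2G41480 averaged 453 in arr10 arr12 and 223 in wild type (log2 difference 1.00, limma adjusted p = 0.000636), and PRX52 averaged 45.9 in arr10 arr12 and 145 in wild type (log2 difference -1.53, limma adjusted p = 0.00643). Under DMSO 0 were higher and 1 was lower, AT5G64120, at 195 in arr10 arr12 and 334 in wild type (log2 difference -0.74, limma adjusted p = 0.00816). AT2G41480 reached the level and difference asked for under trans-zeatin but differed by 0.23 under DMSO, and its wild-type response of -0.67 was beyond the limit as well. Of 8 probe sets with the word methyltransferase, 5 were tested and 0 passed in either genotype comparison. Both lists were taken by the word alone, so a gene on them need not be a relative of AT5G15180 or AT1G73600. The words germin, GDSL and extensin matched no gene name or synonym here, so the relatives of AT5G38910, AT1G29660 and AT1G26250 could not be counted this way.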
